A study of Eucalyptus camaldulensis with 12 samples.

Results

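Mt Isa and Petford are 2 natural populations of Eucalyptus camaldulensis, the river red gum, from the semi-arid and the humid tropics. Their leaf transcriptomes were compared here in 8 libraries of the 12 in the series, namely every library that the labels assign to Mt Isa (MC0, MC1, MS0 and MS1) and to Petford (PC0, PC1, PS0 and PS1). The letters and digits give the treatment group. C0 and C1 are the same 5 seedlings of a population, sampled before treatment and again at the end of normal watering, while S0 and S1 are the same 10 seedlings, sampled before treatment and again after growth at 30% of field capacity. Seedlings were raised in pots in a glasshouse, 2 leaves were taken per seedling, and the leaves of a group were bulked into 1 library. Each population was therefore represented by 2 independent sets of seedlings, each sampled at 2 times, and the spread between individual seedlings was not measured. Each library of Mt Isa was compared with the Petford library of its own treatment group, by fitting treatment group as a block.

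Labels disagree for the Mt Isa libraries MC1 and MS0. The source description of each names another group than its title and its sample-group label do, and the latter were followed. Over 18379 transcripts with at least 100 reads, log2 CPM (normalised read count, scaled to library size by TMM) of MC1 correlated at 0.926 with PC1, at 0.846 with PC0 and at 0.569 with PS1. MS0 correlated at 0.921 with PS0 and at 0.926 with PC0, so its place among the 2 groups sampled before treatment cannot be told apart from these values.

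Populations of a forest tree that grow in different climates can differ in their leaf transcriptome in every condition, because they carry different alleles, gene copies and regulatory variants, or only in some conditions, because they respond differently to them. Eucalypt leaves are rich in terpenes, the volatile oils made by terpene synthases, and in flavonoids and other phenolics made from phenylalanine. Both are classes of compound in which eucalypt populations are known to vary. Families that take part in such chemistry or in defence, among them cytochrome P450s, glycosyltransferases, chitinases and nucleotide-binding resistance proteins, occur in tandem clusters whose members vary in number within a species.

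The values are counts of reads on transcripts predicted from the pooled reads on the draft genome of Eucalyptus grandis, a related species, so a difference in counts is a difference in reads that mapped there. Coordinates are given on that draft. Library totals ran from 1726793 to 3277834 reads in Mt Isa and from 1902802 to 6951584 in Petford, and the 4 Petford libraries together held 1.97 times the reads of the 4 Mt Isa libraries. The libraries looked like leaf. The nuclear genes of the photosystem, light-harvesting and Rubisco list summed to between 19710 CPM, in MS1, and 158400 CPM, in PS0. Those of the secondary wall and xylem list summed to at most 1620 CPM. The Rubisco small subunit gene RBCS1A (Eucgr.J01502), which encodes part of the enzyme that fixes carbon dioxide, stood at 24780, 7952, 19340 and 1694 CPM in Mt Isa C0, C1, S0 and S1 and at 34600, 14130, 56580 and 3747 in Petford.

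Of 39789 transcripts with at least 10 reads over the 8 libraries, 723 (1.82%) differed between the populations at an adjusted p of 0.01 in the edgeR quasi-likelihood test. Of these, 210 (0.528% of those tested) were higher in Mt Isa and 513 (1.29%) were higher in Petford. The median log2 fold change, Mt Isa over Petford, was 2.37 for the former and -1.78 for the latter, against -0.07 over all transcripts tested. The difference had the same sign in all 4 treatment groups for 526 of the 723, a share of 72.8%, against 17.2% of all transcripts tested, and the 4 libraries of a population did not overlap with those of the other for 264 (36.5%), against 3.22%. Calls were made on these same 8 libraries, so equal sign or lack of overlap among called transcripts, here and below, is not independent of the test. The p values measure only the spread between these bulked libraries, and the fit takes the 2 samplings of the same seedlings as separate. With counts summed per set of seedlings, 146 transcripts were called, all among the 723. The size of the list depended on the form of the test. The default fit gave the prior spread 93.5 degrees of freedom, while the same fit with a correction for small counts gave it 8.86 and called 101 transcripts (0.254%), 47 higher in Mt Isa and 54 higher in Petford. All 101 were among the 723, 95 of them had the same sign in all 4 groups, 89 were called whichever of the 8 libraries was left out of the default fit, and 83 were also called by DESeq2. The share of calls higher in Mt Isa was 29.0% in the default fit and 46.5% with the correction. The 101 transcripts differed by a median of 9.08-fold. Adjusted p values below are those of the default fit, and for named genes the value with the small-count correction is given after it.

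The comparison was repeated in each set of seedlings alone. Within a set, each population is a single group of seedlings sampled at 2 times, so these fits hold no independent replicate of a population. Depth differed as well, at 6126611 and 6951584 reads in PS0 and PS1 against 1902802 and 2987962 in PC0 and PC1. In Mt Isa it was 1726793 and 2343370 in MS0 and MS1 against 3277834 and 1759873 in MC0 and MC1. The C seedlings gave 64 calls (0.208% of 30782 tested) and the S seedlings 705 (2.04% of 34578). In all, 34 transcripts were called in both, which is 53.1% of the calls of the C seedlings and 4.82% of those of the S seedlings, and 33 of the 34 had the same direction. Of the 59 calls of the C seedlings that were tested in the S seedlings, 55 had the same sign there, with a median log2 difference of 2.27 along the direction of the call against 3.44 in the C seedlings themselves. Of 629 calls of the S seedlings tested in the C seedlings, 426 (67.7%) had the same sign, and their median difference along the call was 0.48 against 1.90. Over all transcripts tested in both sets the share was 55.9%. The calls of the C seedlings were thus mostly of the same sign in the S seedlings, and those of the S seedlings less so.

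**Figure D1:**
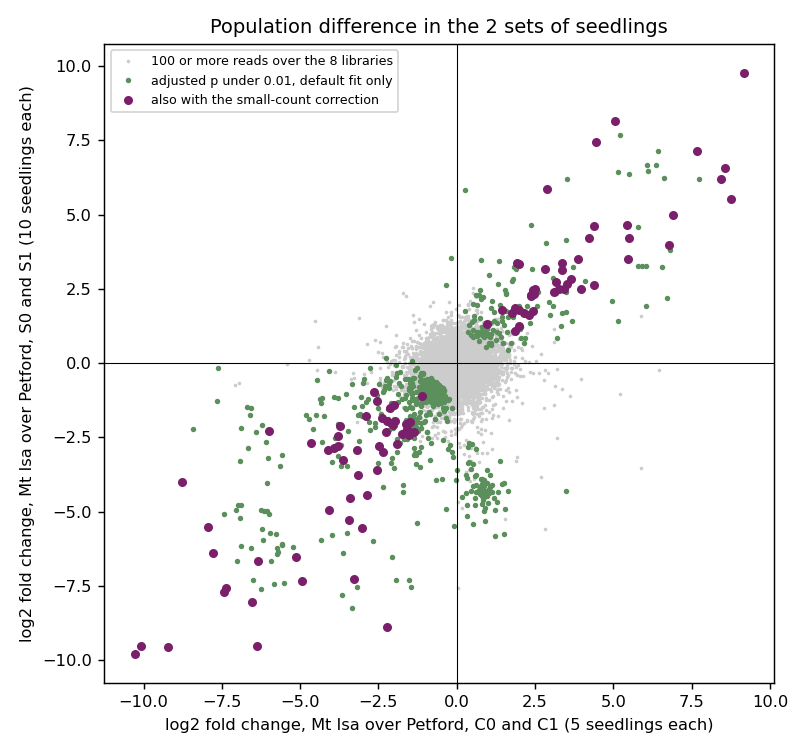
Each point is a transcript, with the log2 fold change of Mt Isa over Petford in the C seedlings (x axis) and in the S seedlings (y axis). Purple points are transcripts that are called with the small-count correction, and all 96 of them that could be fitted in both sets lie in the quadrants of equal sign. They were called on both sets together, so their equal sign is not independent of the selection. A separate green cloud at the lower right holds transcripts that were higher in Mt Isa in the C seedlings and higher in Petford in the S seedlings.

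Among genes with a name, the 2 largest differences were a pair of cytochrome P450 genes next to each other on scaffold 4, Eucgr.D01193 (21684730 to 21686496) and Eucgr.D01195 (21704020 to 21705426). Their best match in Arabidopsis is CYP71B23, a member of a large family of oxidising enzymes of specialised metabolism. Eucgr.D01193 had 116, 185, 316 and 14 reads in Petford C0, C1, S0 and S1 and no read in any Mt Isa library. Eucgr.D01195 had 99, 171, 259 and 17 reads in the same Petford libraries and none in Mt Isa. With a floor of 3 reads over the population, they were at least 107-fold and at least 92.2-fold lower in Mt Isa (adjusted p = 1.7e-28 and 5.2e-27, or 0.0001 for each with the correction). Katherine, the population of the other 4 libraries, had 36, 60, 37 and 1 reads of Eucgr.D01193, and lay between the other populations in CPM in every group. Reads of near-identical copies could be shared between these neighbours, which were not told apart further.

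An annexin gene on scaffold 6, Eucgr.F02433, whose best match is the calcium-binding membrane protein ANNAT1, was nearly without reads in Mt Isa. It had 10, 6, 72 and 229 reads in Petford C0, C1, S0 and S1 and 0, 0, 0 and 1 in Mt Isa (log2 fold change -6.67, SE 0.63, adjusted p = 1.5e-14, with the correction 0.00032). In Petford its normalised level was highest in stressed leaves, at 37.0 CPM, and lowest in C1, at 1.90 CPM. Katherine resembled Mt Isa, with 0, 0, 3 and 5 reads.

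Other named genes were expressed in both populations and were several-fold higher in Petford in each of the 4 groups. A leucine-rich repeat receptor kinase gene, Eucgr.J02919, of a family that senses signals at the cell surface, stood at 28.2, 64.0, 20.9 and 1.13 CPM in Petford and at 2.02, 4.37, 2.38 and 0.405 CPM in Mt Isa (log2 fold change -3.57, SE 0.33, adjusted p = 8.3e-15, with the correction 0.00024). A basic secretory protein gene, Eucgr.G01327, of a family linked to defence in other plants, was highest in stressed leaves of both, at 174 CPM in Petford S1 and 15.0 in Mt Isa S1, and was at most 8.30 CPM in the other Petford libraries and 2.38 in the other Mt Isa ones (log2 fold change -3.29, SE 0.31, adjusted p = 2.2e-14, with the correction 0.0020). Petford was the higher in the 3 unstressed groups too.

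A MADS-box gene, Eucgr.F02142, matched AGL24, a promoter of flowering in Arabidopsis. Its levels were 16.1, 8.87, 13.3 and 49.6 CPM in Petford and 4.72, 1.94, 3.58 and 5.67 CPM in Mt Isa, without overlap between the populations (log2 fold change -2.35, SE 0.30, adjusted p = 4.2e-09, with the correction 0.0027). Eucgr.J01709, of unknown function (DUF247), and Eucgr.H00193, a nucleoside triphosphate hydrolase, were lower in Mt Isa by log2 fold changes of -2.78 (SE 0.29) and -2.20 (SE 0.22), with adjusted p of 1.4e-12 and 5.6e-13, or 0.00040 and 0.00039 with the correction. A cytochrome b5 gene, Eucgr.F00125, which encodes an electron carrier for P450s and desaturases, differed most in C1, at 164 CPM in Petford against 25.7 in Mt Isa (log2 fold change -2.21, SE 0.30, adjusted p = 2.4e-08, with the correction 0.0096), and was not called without MC1 or PC1. RPP8 (Eucgr.E00684), a nucleotide-binding resistance protein in Arabidopsis, had 2.77, 5.70, 3.78 and 2.10 CPM in Petford and at most 0.486 in Mt Isa, but on few reads, and its adjusted p was 0.002, and 0.027 with the correction.

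Among named genes, the largest difference towards Mt Isa was at a terpene synthase, of the family that makes the volatile oils of eucalypt leaves. On scaffold 1, 2 of the transcripts that matched TPS02 were called. The one at 17077866 to 17081339 (CUFF.1087) stood at 259, 1038, 245 and 62.4 CPM in Mt Isa C0, C1, S0 and S1 and at 53.1, 107, 29.3 and 6.63 CPM in Petford. It was higher in Mt Isa in all 4 groups, with a log2 fold change of 2.97 (SE 0.19, adjusted p = 2.5e-24, with the correction 6.3e-05). The one at 17213991 to 17217408 (CUFF.1107) stood at 277, 929, 119 and 56.3 CPM in Mt Isa and at 96.3, 240, 47.1 and 13.7 CPM in Petford (log2 fold change 1.71, SE 0.18, adjusted p = 1.1e-12, with the correction 0.00039). In both populations these transcripts were highest in C1 and lowest in stressed leaves. A short TPS10 match in the same region, CUFF.1085, was higher in Mt Isa by 1.67 (SE 0.41, adjusted p = 0.0055), but not with the correction (0.031).

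Of the 19 transcripts in the terpene synthase list these 3 (15.8%) were called, all higher in Mt Isa, and 16 were not, against 1.82% called of all transcripts and 7.20% of the named ones. CUFF.32675 on scaffold 7, also a TPS02 match, was at 0.67 (SE 0.18, adjusted p = 0.017, with the correction 0.14). The list median was 0.27 over the 4 groups, and 0.05, 0.60, 0.18 and 0.02 in C0, C1, S0 and S1, against -0.07 for all transcripts over the 4 groups.  Reads may be shared in the counting between terpene synthase copies of similar sequence, which was not examined.

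A gene matching the cellulose synthase-like protein CSLB6 (Eucgr.E03847), of a family that makes cell wall polysaccharides, was 16.5, 12.6, 20.3 and 19.0 CPM in Mt Isa and 3.32, 4.44, 3.55 and 7.44 CPM in Petford. The 2 ranges did not overlap (log2 fold change 1.85, SE 0.29, adjusted p = 1.9e-06, with the correction 0.0076). A pathogenesis-related gene, Eucgr.F02733, stood at 8.77, 0.486, 14.3 and 38.9 CPM in Mt Isa and at 1.11, 0, 6.66 and 6.14 CPM in Petford (log2 fold change 2.12, SE 0.35, adjusted p = 7.1e-06, with the correction 0.015). Eucgr.H03342, a methyltransferase, CUFF.314, a glycosyl hydrolase, the thaumatin-like Eucgr.E01392 and the ATHS1 genes Eucgr.K03413 and Eucgr.K03419 completed the 10 named genes with the largest differences in this direction. Their log2 fold changes ran from 1.28 to 1.77, and none was called with the correction, where their adjusted p ran from 0.027 to 0.096.

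**Figure D2:**
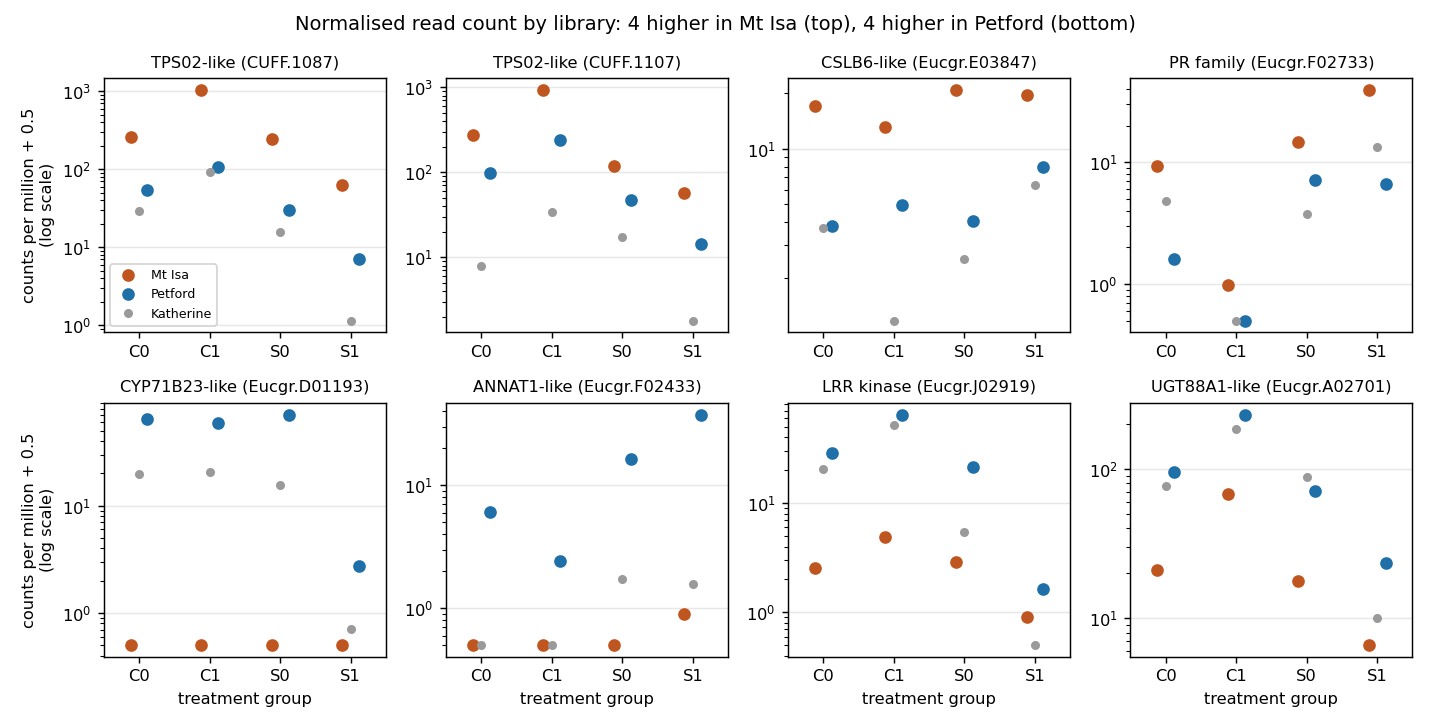
Normalised read count (CPM + 0.5, log scale) of 8 genes in each library, by treatment group (x axis) and population (colour), with 1 point per library. Mt Isa lies above Petford in all 4 groups in the upper panels, as for CUFF.1087 at 1038 against 107 CPM in C1, and below it in all 4 groups in the lower panels; Katherine is shown for comparison.

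Most of the 101 transcripts called with the correction had no name, and only 16 had one. Among transcripts with at least 50 reads, the 5 largest differences in each direction were taken by coordinates. Towards Petford, beside the P450 pair, these were transcripts on scaffold 2 (15037663 to 15043251), scaffold 9 (11363019 to 11363675) and scaffold 5 (38435980 to 38437090), each with no read in Mt Isa. The scaffold 9 transcript had 34, 43, 1 and 3 reads in Petford C0, C1, S0 and S1, so its reads were mostly from the C seedlings. It was not called in the S seedlings alone or by DESeq2. The scaffold 2 transcript had 57, 86, 122 and 150 reads in Petford C0, C1, S0 and S1, which at 24.2 to 31.5 CPM made it nearly even across the groups, and was at least 70.1-fold lower in Mt Isa. Katherine had 3 to 7 reads of it per library.

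Towards Mt Isa, a transcript on scaffold 5 (14304550 to 14306766) had 91, 56, 68 and 50 reads in Mt Isa C0, C1, S0 and S1 and none in Petford, so that it was at least 174-fold higher in Mt Isa. Transcripts on scaffold 5 (71793150 to 71794321) and scaffold 8 (23934175 to 23934822) had 91 and 80 reads over the Mt Isa libraries, 69 of the latter in MC1, also with none in Petford. The remaining 2 were different in kind. A transcript on scaffold 3 (7872979 to 7873599) had 138 and 400 reads in MS0 and MS1 and none in any of the other 10 libraries, and another on the same scaffold (7856992 to 7857377) had 75 and 136 reads in MS0 and MS1 and none elsewhere. These 2 were thus seen in the 10 S seedlings of Mt Isa but not in its 5 C seedlings, although the test over the 8 libraries called them (adjusted p = 4.9e-32 and 3.5e-22, with the correction 6.3e-05 and 0.00022).

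Complete absence of reads was counted without a test. With at least 20 reads over the other population as the limit, 108 transcripts had no read in Mt Isa and 27 had none in Petford. The Petford libraries were 1.97 times deeper, so the 2 numbers are not equally easy to reach. Of the 108, 46 were called, 9 of them with the correction, 92 had reads in both sets of Petford seedlings, and 85 had reads in Katherine. Of the 27, 26 were called, 7 of them with the correction, 21 had reads in both sets of Mt Isa seedlings, and 20 had reads in Katherine. Of all transcripts tested 1.82% were called. Absence was read from the same 8 libraries as the calls, so the shares called among these transcripts are not independent of their selection. The P450 pair were the only 2 named transcripts among them.

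Called transcripts also lay beside each other. When calls on the same scaffold were joined over gaps of at most 50000 bases between starts, 29 runs of 3 or more were found, with 105 of the 723 calls, and in 23 of the runs all calls had the same direction. Neighbouring predicted transcripts can be pieces of a single gene, so these are not independent calls. How many runs would arise by chance was not tested. The runs with most calls, 8 on scaffold 1, 7 on scaffold 10 and 5 on scaffold 11, held homologs of organelle genes, which are described below. All calls in them were higher in Petford, and none was called with the correction. On scaffold 5, 3 calls between 1752743 and 1773737 were all higher in Mt Isa and all were called with the correction. The largest of them, at 1752743 to 1756330, had 438, 97, 187 and 354 reads in Mt Isa and 3, 6, 16 and 136 in Petford (log2 fold change 4.12, SE 0.24, adjusted p with the correction 0.00043). Katherine, with 119, 87, 200 and 520 reads, was nearer to Mt Isa there.

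The CSLB6 gene was in another such run on scaffold 5, between 67317043 and 67347469, where 4 of 5 tested transcripts were higher in Mt Isa, 3 of them with the correction. On scaffold 8, 2 unnamed transcripts between 1912567 and 1919509 were higher in Mt Isa, with log2 fold changes of 2.97 and 2.84. Eucgr.H00193, which starts at 1928753 beside them, was lower by 2.20 on the log2 scale, so the direction changed within 21.5 kb. On scaffold 10, all 3 tested transcripts between 1057671 and 1063111 were higher in Mt Isa with the correction. These runs were chosen for description after their values were seen.

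Phenylpropanoid, lignin and flavonoid genes make up the chain that leads from phenylalanine to lignin, flavonols and proanthocyanidins. Of 32 such transcripts tested, 8 (25.0%) were called, all higher in Petford, and 24 were not. Among all 1860 named transcripts the share called was 7.20%, with 23 higher in Mt Isa and 111 higher in Petford. The counts of the lists below stand against this same background. Most names come from the study's list of genes that differ between C1 and S1 in these samples, so the named transcripts were chosen partly on these libraries and are not independent evidence. The largest difference was at a chalcone synthase, the entry into flavonoid synthesis. This gene, Eucgr.H02828, stood at 86.9, 1456, 45.5 and 12.45 CPM in Petford C0, C1, S0 and S1 and at 19.9, 330, 8.94 and 7.70 CPM in Mt Isa (log2 fold change -1.91, SE 0.21, adjusted p = 7.2e-12, with the correction 0.0025). It was the only member of the list called with the correction. Eucgr.I01579, another chalcone synthase, was lower in Mt Isa by 1.44 (SE 0.19, adjusted p = 2.0e-08, with the correction 0.018).

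Other steps also differed in C1, where these genes were high. Phenylalanine ammonia-lyase PAL2 (Eucgr.J00907), the first step, was 895 CPM in Petford C1 against 215 in Mt Isa C1, and 112 against 65.8 in C0. Cinnamate 4-hydroxylase (Eucgr.J01844), the next step, was 952 against 291 CPM in C1. Flavanone 3-hydroxylase F3H (Eucgr.J02430), which the words of the list had missed, was 799 against 212, and dihydroflavonol reductase DFR (Eucgr.F01589), which leads to anthocyanidins, was 951 against 195. Over the 4 groups the log2 fold changes of these 4 genes were -1.27, -0.95, -1.17 and -1.61, with adjusted p from 1.2e-07 to 0.00011, or 0.016 to 0.053 with the correction. The remaining calls of the list were the laccase LAC5 (Eucgr.G03098), HCT (Eucgr.F03973), an acyltransferase of lignin synthesis, and the flavonol synthase FLS1 (Eucgr.L00738), at -1.14, -0.79 and -0.69, with adjusted p of 0.09, 0.04 and 0.065 with the correction. Over the whole list the median difference was -0.32, -0.24, -0.42 and -0.27 in C0, C1, S0 and S1, and in C1 15 of its 32 members were higher in Mt Isa.

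In C1 Katherine was near Petford for these genes, with 1528 CPM of chalcone synthase Eucgr.H02828, 721 of PAL2 and 861 of DFR. The Mt Isa C1 library was therefore the low one of the 3. It is also 1 of the 2 libraries whose labels disagree. Without MC1 the default fit still called both chalcone synthases, PAL2 and DFR, with log2 fold changes of -1.77, -1.08, -0.97 and -1.21, and no longer called C4H, F3H, HCT or FLS1. Without PC1 the same 4 genes were called as well. LAC5 was not called without MS0, PS0 or PS1.

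Glycosyltransferases and serine carboxypeptidase-like proteins, which attach sugars or acyl groups to such phenolics, also held members that were high in the same C1 libraries. Of 29 glycosyltransferases tested, 5 were higher in Petford and 1 in Mt Isa (20.7% together), and 23 were not called. UGT88A1 matches went both ways on scaffold 1. Eucgr.A02701 stood at 95.7, 231, 70.8 and 22.9 CPM in Petford and 20.6, 67.5, 17.3 and 6.08 CPM in Mt Isa (log2 fold change -1.98, SE 0.18, adjusted p = 8.3e-15, with the correction 0.00019). Eucgr.A02695, on the same scaffold, was higher in Mt Isa by 0.90 (SE 0.18, adjusted p = 0.00026, with the correction 0.031). UGT78D2 (Eucgr.C01021), a flavonoid glucosyltransferase in Arabidopsis, was 280 CPM in Petford C1 and 55.4 in Mt Isa C1 (log2 fold change -1.80, SE 0.26, adjusted p = 2.0e-07, with the correction 0.018).

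Of 26 serine carboxypeptidase-like transcripts 4 (15.4%) were called, all higher in Petford. They were scpl6 (Eucgr.L01608), SCPL15 and scpl17 (both within Eucgr.I01035) and scpl18 (Eucgr.I01041). In C1 the first stood at 214 CPM in Petford and 46.6 in Mt Isa and the second at 107 and 16.0, while in S1 none of the 4 exceeded 3.23 CPM in either population. SCPL15 was the only one called with the correction (adjusted p = 0.0036). None of the 4 was called by DESeq2, and leaving out MC1 or PC1 ended the call of each, as it did for UGT78D2. MYB83 (Eucgr.E01031), a regulator of secondary walls in Arabidopsis, had a comparable profile, with 6.64, 115, 1.33 and 1.62 CPM in Petford and 1.35, 9.22, 0 and 1.62 CPM in Mt Isa (log2 fold change -2.93, SE 0.39, adjusted p = 1.6e-08, with the correction 0.035). Its call too was lost without MC1 or PC1. It was the 1 call among the 30 members of the transcription factor list, which does not hold the MADS-box gene AGL24. In Katherine C1 it stood at 125 CPM.

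**Figure D3:**
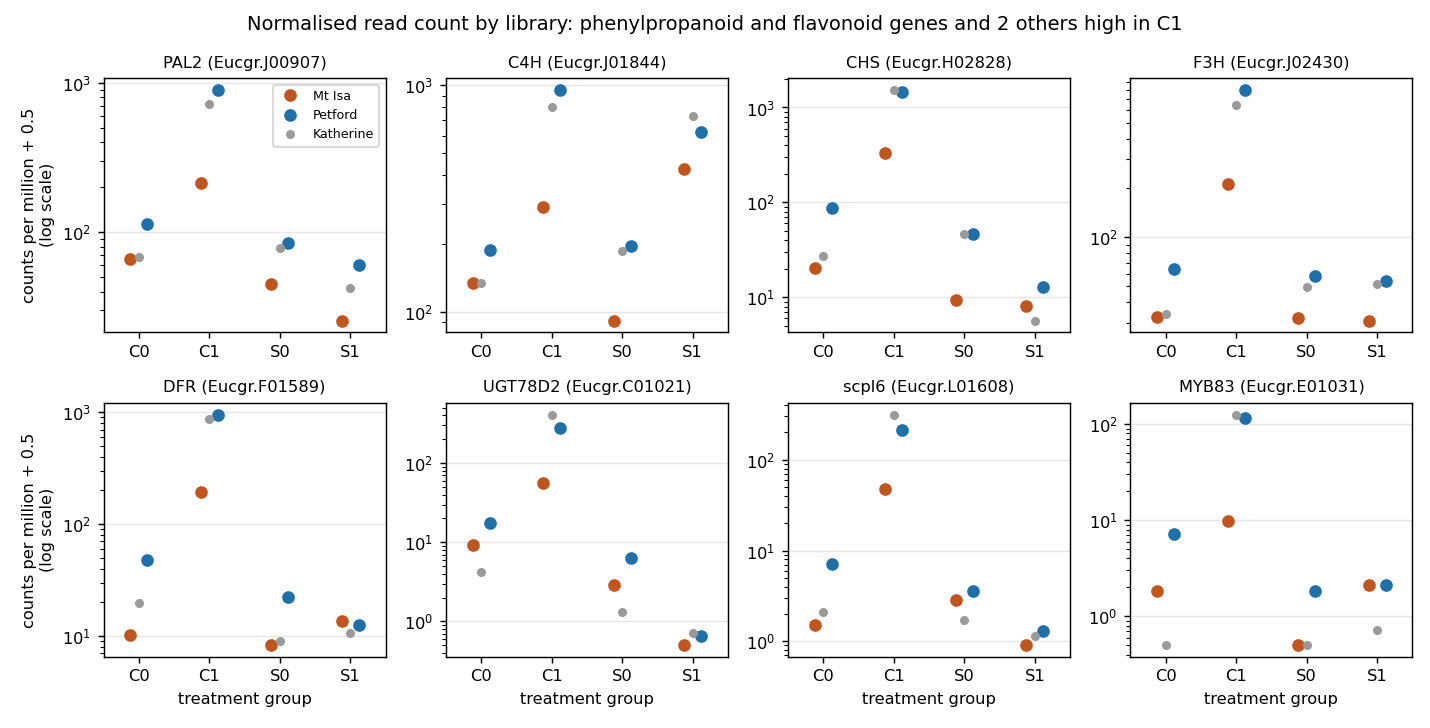
Normalised read count (CPM + 0.5, log scale) of 5 phenylpropanoid and flavonoid genes, UGT78D2, scpl6 and MYB83 in each library, by treatment group (x axis) and population (colour), 1 point per library. In C1 the Mt Isa point lies below both the Petford and the Katherine point in every panel, for example 195 against 951 and 861 CPM for DFR.

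Of 31 cytochrome P450s tested, 5 (16.1%) were called, all higher in Petford, and the list median was -0.36. Beside the pair on scaffold 4 these were CYP706A6, CYP76C4 and CYP706A4, and only the pair was called with the correction. CYP706A6 (Eucgr.D01997) stood at 457, 266, 623 and 20.5 CPM in Petford and 209, 166, 210 and 4.86 CPM in Mt Isa (log2 fold change -1.26, SE 0.18, adjusted p = 3.1e-07, with the correction 0.012). CYP706A4 (Eucgr.D00200) was lower in Mt Isa by 0.79 (SE 0.18, adjusted p = 0.003, with the correction 0.064). The glutathione transferase ATGSTF11 (Eucgr.F02915), 1 of 5 in its list and the only call there, was lower by 1.40 (SE 0.21, adjusted p = 9.6e-07, with the correction 0.027).

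Chitinases and pathogenesis-related proteins act against fungi and other pathogens. Of 18 tested, 4 were higher in Mt Isa and 1 in Petford (27.8% together), 13 were not called, and none was called with the correction. Beside Eucgr.F02733 and Eucgr.E01392, the Mt Isa side held the basic chitinases Eucgr.J02519 and Eucgr.L00937. Eucgr.J02519 had 5.39, 7.28, 5.96 and 124 CPM in Mt Isa and 1.66, 2.54, 5.11 and 54.6 CPM in Petford (log2 fold change 1.10, SE 0.25, adjusted p = 0.0025, with the correction 0.072). Another basic chitinase, Eucgr.I02271, went the other way, with 803 CPM in Mt Isa S1 and 1214 in Petford S1 (adjusted p = 0.0087, with the correction 0.25), and was not called without MC1 or PC1. All 3 were far higher in stressed leaves of both populations than in the other groups.

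Of 43 receptor-like kinases only Eucgr.J02919 was called. None of the 3 transcripts in the list of nucleotide-binding resistance proteins was called; RPP8 is not in that list.

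Heat shock proteins and chaperones protect other proteins from unfolding and are induced by heat and drought. Of 58 tested, 7 (12.1%) were called, all higher in Petford, 51 were not, and none was called with the correction. Of all named transcripts 7.20% were called, 111 of them higher in Petford and 23 in Mt Isa. The list median was -0.32, with 0.06, -0.70, -0.17 and -0.37 in C0, C1, S0 and S1, and 48 of the 58 were lower in Mt Isa in S1. Of all 1860 named transcripts, 692 were higher in Mt Isa in S1. The small heat shock protein ATHSP22.0 (Eucgr.G00061) stood at 66.8 CPM in Mt Isa S1, 178 in Petford S1 and 225 in Katherine S1, against at most 3.49 in the other Mt Isa and Petford libraries (log2 fold change -1.42, SE 0.29, adjusted p = 0.00058, with the correction 0.027). HSP18.2 (CUFF.5449) had 50.6 CPM in Mt Isa S1 and 119 in Petford S1, with an adjusted p of 0.00075, or 0.018 with the correction. The DnaJ protein Eucgr.B02081 differed in the unstressed groups too, at 87.0, 37.9, 69.7 and 74.9 CPM in Mt Isa and 110, 71.9, 176 and 139 in Petford (adjusted p = 0.0003, with the correction 0.044).

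Other genes of the response to water deficit gave few calls. None of the 7 LEA proteins and dehydrins of the list, of 10 abscisic acid signalling genes or of 12 aquaporins was called, in the default fit or with the correction. Among 15 galactinol, raffinose and trehalose genes, which make protective sugars, the galactinol synthase AtGolS1 (Eucgr.H00906) was called (-0.85, SE 0.20, adjusted p = 0.0047, with the correction 0.29). It had 712 CPM in Mt Isa S1 and 1241 in Petford S1, but its largest difference was in C1, at 14.6 CPM in Mt Isa against 82.7 in Petford. In C0 it differed by 0.32 the other way, and it stayed called in 2 of the 8 fits that leave out 1 library. The median of that list was -0.54, and 13 of its 15 members were lower in Mt Isa in S1.

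Whether the population difference itself changed in stressed leaves was tested as the interaction of population with S1. In the default fit 88 transcripts (0.221%) departed in S1 from the other 3 groups, 17 towards Mt Isa and 71 towards Petford, with 1691 at an unadjusted p under 0.05. That fit gave the prior spread infinite degrees of freedom, so the spread of single transcripts had no weight in its p values and SEs. With the small-count correction the prior spread had 6.55. No transcript was called with the small-count correction, where 1546 had an unadjusted p under 0.05, or by DESeq2, where 234 had. Setting apart C0, C1 or S0 in place of S1 gave 115, 108 and 94 calls. In 47 of the 88, PS0 and PS1 both exceeded 2 times every other Mt Isa and Petford library in CPM.

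The named genes with the smallest p towards Mt Isa were a branched-chain aminotransferase, ATBCAT-2 (Eucgr.F00105), an osmotin, ATOSM34 (Eucgr.D01887), and a Rossmann-fold protein, Eucgr.K02657. ATBCAT-2 was 105 CPM in Mt Isa S1 and 33.1 in Petford S1 but lower in Mt Isa in C1, at 1.46 against 7.29, so that its interaction was 2.64 on the log2 scale (SE 0.49). ATOSM34, a protein of osmotic stress and defence, was 65.2 CPM in Mt Isa S1 and 8.89 in Petford S1, with an interaction of 3.87 (SE 0.72). Eucgr.K02657 was 82.05 CPM in Mt Isa C1 and 416.7 in Petford C1, against 3.24 and 0.646 in S1, with an interaction of 5.03 (SE 0.85). These rest on 1 library per population and group. Without MC1 the fit gave 2 calls, and without PC1 it gave 0, with 996 and 849 at an unadjusted p under 0.05.

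Another difference between the sets of seedlings was at homologs of chloroplast and mitochondrial genes on nuclear scaffolds. The 3 named genes with the smallest interaction p towards Petford, ACCD, NDHH and PSBG, are of this kind. The list held 13 such transcripts, of which 12 (92.3%) were called higher in Petford and none with the correction. The ACCD match (CUFF.35826), a subunit of the plastid acetyl-CoA carboxylase, stood at 138, 40.6, 1963 and 606 CPM in Petford C0, C1, S0 and S1 and at 199, 75.7, 118 and 24.7 CPM in Mt Isa. Petford was thus far higher in the S seedlings and lower in the C seedlings. The 13 transcripts together took 0.866% of the reads of PS0 and 0.367% of PS1, between 0.0221% and 0.130% of the other 6 libraries, and 0.492% and 0.344% of the Katherine S0 and S1 libraries. These values divide the S from the C seedlings rather than S1 from the rest. The median difference of the list was 0.82, 0.68, -4.46 and -4.22 in C0, C1, S0 and S1.

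Some transcripts with no organelle match had a like distribution over the libraries. Among the 723 calls, 87 had PS0 and PS1 above 2 times every other Mt Isa and Petford library in CPM, a pattern seen in 0.571% of the transcripts tested. These 87 include organelle homologs such as ACCD, NDHH and PSBG, and 13 of the 87 were named. The median length of the 87 was 240 bases, against 1492.5 for the other calls. In 67 of the 87 the C0 library of Mt Isa was higher than that of Petford, and in 76 both Katherine S libraries were above both Katherine C libraries. Leaving them aside, 636 calls remained, 426 of them higher in Petford. Only 6 of the 101 transcripts called with the correction had the pattern. When the S groups were set against the C groups in a test added after the data were seen, the population difference changed for 180 transcripts, 147 of them towards Petford. That number was 61 with the correction and 79 with DESeq2.

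**Figure D4:**
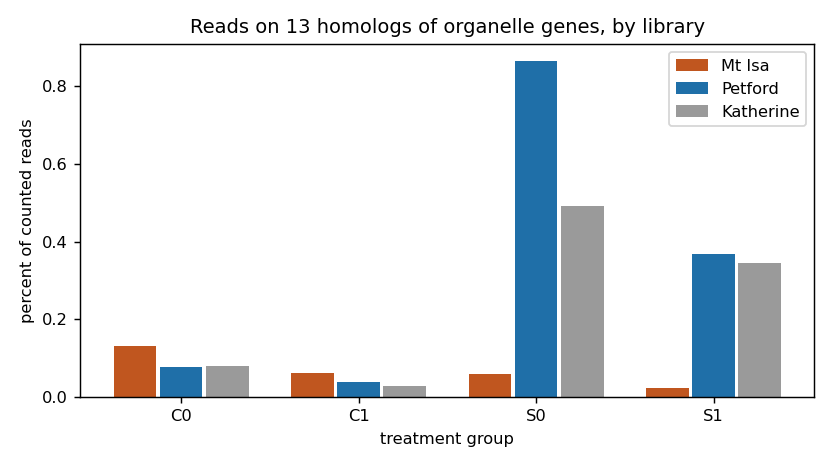
Share of counted reads on the 13 homologs of organelle genes (percent, y axis) in each of the 12 libraries, by treatment group (x axis) and population (colour), 1 bar per library. The S0 and S1 bars of Petford (0.866% and 0.367%) and Katherine stand above the rest, while those of Mt Isa do not.

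Nuclear genes of photosynthesis leaned the same way in some groups only. Of 26 tested without organelle homologs, 3 (11.5%) were called, all higher in Petford, and none was with the correction. All 26 had a negative fitted fold change, with a median of -0.30, yet by group the median was 0.04, -0.44, -0.78 and 0.02 in C0, C1, S0 and S1. RBCS1A differed by -1.0 (SE 0.17, adjusted p = 1.4e-05, with the correction 0.045), and stayed called in 3 of the 8 fits that leave out 1 library. A second Rubisco small subunit gene, Eucgr.B03013, was 390.8, 7.77, 560.7 and 8.91 CPM in Mt Isa and 1110, 120, 1518 and 7.43 CPM in Petford (log2 fold change -1.66, SE 0.24, adjusted p = 1.5e-07, with the correction 0.098). In bulk leaf RNA, a difference in the cells sampled and a difference in RNA per cell cannot be told apart.

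Cell wall genes were mixed. Of 51 expansins, xyloglucan, pectin and cellulose genes, 5 were higher in Petford and 2 in Mt Isa (13.7% together). The pectin lyase-like Eucgr.B00168 (-0.82, SE 0.19), the pectate lyase Eucgr.H02448 (-0.88, SE 0.20) and expansin ATEXPB3 (Eucgr.A01806, -1.0, SE 0.24) had adjusted p of 0.0023, 0.0031 and 0.005, and none of the 3 was called with the correction. The CSLB6 gene, in this list too, was. Of 15 epidermis and cuticle genes, the lipid transfer protein LTP3 (Eucgr.A00746) and the wax enzyme KCS1 (Eucgr.D02646) were higher in Petford, with log2 fold changes of -0.89 and -0.95, but not with the correction (adjusted p = 0.065 and 0.18). KCS1 was the other way in C0, by 0.21, and neither gene was called without MS0 or PS0. Of 22 antioxidant genes, 4 (18.2%) were called, all higher in Petford. Among them was ascorbate peroxidase APX2 (Eucgr.A01180), at 160 CPM in Mt Isa S1 and 373 in Petford S1 (adjusted p = 0.002, with the correction 0.1). In C0 APX2 differed by 0.22 the other way, and it stayed called in 2 of the 8 fits that leave out 1 library. The list also holds the annexin Eucgr.F02433.

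No transcript was called among 22 cytosolic ribosomal proteins, 33 cell division, histone and tubulin genes, 12 phosphate, nitrate, sulfate and iron transporters, 6 secondary wall and xylem genes, 2 circadian clock genes or 2 transposon-related genes, in the default fit or with the correction. The cell division list had medians of 0.41 in C1 and S1 and -0.64 in S0, and its summed level was lowest in stressed leaves of both populations, at 1168 CPM in Mt Isa and 1291 in Petford.

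**Figure D5:**
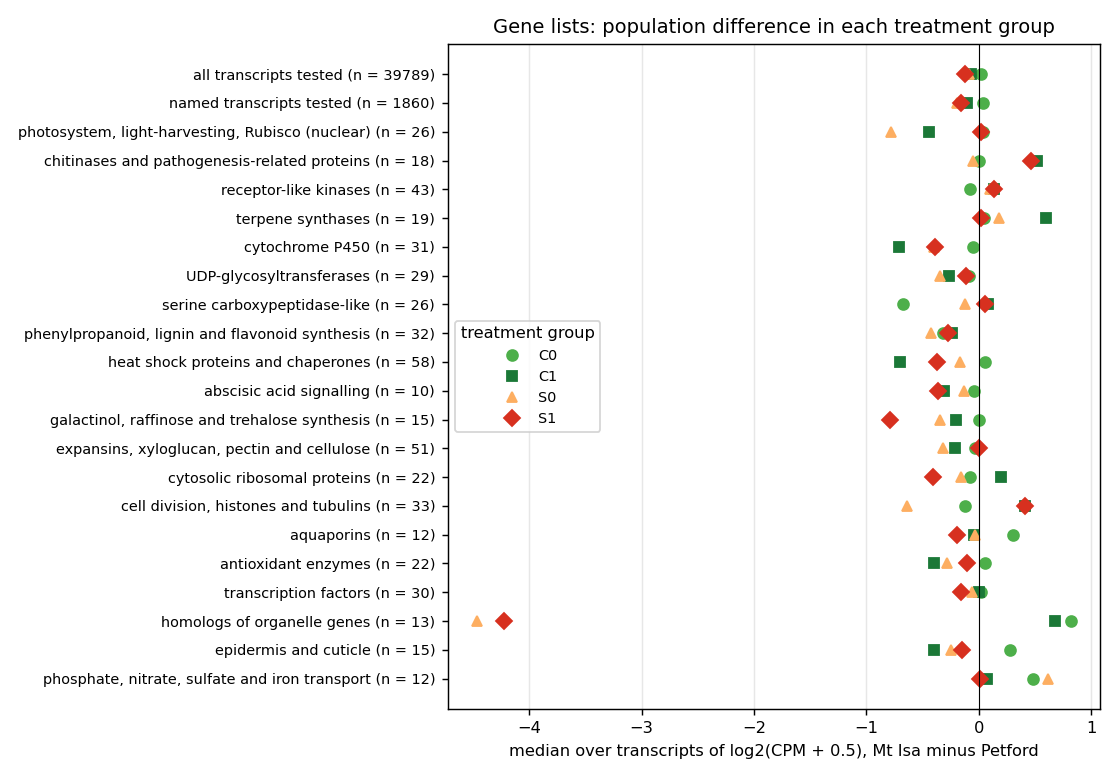
Median over the transcripts of each list of the Mt Isa minus Petford difference in log2(CPM + 0.5) (x axis), in each treatment group (symbol). Most lists lie within 1 of 0 in every group; the organelle homologs stand at -4.46 and -4.22 in S0 and S1 and above 0 in C0 and C1.

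Katherine was set on the line between the other 2 by its mean log2 CPM, with 0 at Petford and 1 at Mt Isa. For the 47 transcripts higher in Mt Isa with the correction, Katherine was nearer to Petford in 36, and its median position was 0.15. The 36 include 7 in which Katherine had no read. Katherine lay at or beyond Petford in 17 of the 47 and at or beyond Mt Isa in 0. For the 54 higher in Petford it was nearer to Petford in 26 and nearer to Mt Isa in 28, with a median of 0.52. Both called TPS02 transcripts were lower in Katherine than in Petford in each group, as in S0, at 15.05 against 29.3 CPM for CUFF.1087. The TPS02 match CUFF.1110, which was not called, had 1269, 6866, 1766 and 38 reads in Katherine C0, C1, S0 and S1. The same default fit called 309 transcripts between Katherine and Mt Isa, of 38499 tested, and 430 between Katherine and Petford, of 40630; these fits share libraries with the comparison of Mt Isa and Petford, and the differences between the numbers were not tested.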

How the data were processed

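RNA of bulked leaves was sequenced by the authors as single-end reads. Per the study's methods, the pooled reads were mapped to the draft Eucalyptus grandis genome with Bowtie and TopHat, transcripts were predicted with Cufflinks, and BEDTools counted reads per transcript and library. Tool versions, the genome release and strand handling were not given in the sources used here. Raw read counts were deposited, from 1726793 to 6951584 per library used. Repeated transcripts (245) and transcripts sharing scaffold and start with another (1633) were left out.

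The counts were tested with edgeR 4.0.16 (R 4.3.3, limma 3.58.1), TMM scaling and a quasi-likelihood fit of population with treatment group as block, on transcripts with at least 10 reads, with Benjamini-Hochberg adjustment and a threshold of 0.01. CPM use TMM over the 12 libraries, and differences by group are of log2(CPM + 0.5). An SE was computed from the fold change and the test statistic, and is too small where a population has no reads. Scripts were tested on simulated data. Alternatives were the small-count correction of edgeR, DESeq2 1.42.0, other filters and scalings, single sets of seedlings and leaving out each library.

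Names came from supplementary gene tables of the study, matched by coordinates or variant position, and are the best Arabidopsis matches. The E value limit of 1e-05 was applied to names matched by coordinates, and no limit was applied to those matched by variant position. Of 41547 transcripts, 1860 had a name. Named genes were the 10 named calls of equal sign in all 4 groups with the largest fold change in each direction, the 5 largest differences each way by coordinates with at least 50 reads, the 3 smallest interaction p each way, and up to 4 members of each of 26 lists with the smallest p. Other genes were named after their values were seen. The members and lists were chosen with earlier results of these data known. Columns of other samples numbered 0.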

Additional observations from a re-analysis of the deposited data

Results flagged for a closer look

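The difference between Mt Isa and Petford was compared over the 4 treatment groups in 77 named transcripts with a call, and in 5 of them 1 group lay far from the other 3, a gap that chance gives in about 1 of 20 such sets. The glycosyl hydrolase CUFF.314 differed by 3.35 on the log2 scale in S0. For the P450 pair the S1 values were -2.47 for Eucgr.D01193 and -2.70 for Eucgr.D01195. With no Mt Isa read these only reflect the lower Petford level in S1 over the pseudocount and do not show a smaller difference. The chalcone synthase Eucgr.H02828 differed by -0.66 in S1, and the flavanone 3-hydroxylase Eucgr.J02430 by -1.91 in C1.

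The population difference in S1 departed from that in the other groups for ATBCAT-2 (2.64), ATOSM34 (3.87) and Eucgr.K02657 (5.03) towards Mt Isa, and for ACCD (-3.94), NDHH (-3.93) and PSBG (-3.68) towards Petford, by the interaction in the default edgeR fit. For ACCD, NDHH and PSBG the difference was as large in S0, at -4.05, -4.68 and -4.60, as in S1, at -4.59, -4.39 and -4.33. With the small-count correction none of the 6 was called. The median change of the population difference between S and C seedlings was -5.15 over the 13 organelle homologs, of which 12 were called in that test.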

How the results depend on the processing

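The number of calls between Mt Isa and Petford varied with the form of the test, the read minimum and the libraries used. Against 723, the fit gave 101 with the small-count correction (added after the data were seen), 116 with at least 50 reads, 64 in C0 and C1, 314 in C0 and S0, 117 in C1 and S1, 146 with counts summed per set of seedlings, 280 with all 12 libraries, 97 by the exact test without the block and 138 by DESeq2. Without the replicate block, that is without treatment group, it gave 0, with 1792 at an unadjusted p under 0.05. Leaving out 1 library gave 418 to 864, with 418 without Mt Isa S0, 419 without Petford S0, 462 without Mt Isa S1 and 480 without Petford S1. RLE scaling, no filter, shared starts kept, overlapping transcripts dropped and S0 and S1 alone gave 624 to 854. The cause was not tested.

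For S1 against the other groups (88), the correction and DESeq2 each gave 0, with 1546 and 234 at an unadjusted p under 0.05, and all 12 libraries gave 56. Leaving out 1 library gave 0 to 129. S0 and S1 against C0 and C1, added after the data were seen like C0, C1 or S0 set apart, gave 180. Between Katherine and Mt Isa (309) no filter gave 564 and DESeq2 89, and between Katherine and Petford (430) DESeq2 gave 115. Transcripts without reads in Mt Isa numbered 311 at 10 reads and 22 at 50 reads in Petford, and those without reads in Petford 48 and 9.

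Of 4687 values of 206 single transcripts under the alternatives, 3683 kept call and direction, 976 lost the call, 20 gained it and 8 turned direction. These 8 were organelle homologs in C0 and C1 alone, namely ACCD at 0.71, NDHH at 1.17, PSBG at 0.81, the PSBA matches Eucgr.L01022 at 0.93 and Eucgr.L01176 at 0.79, PSBB and NDHB.2 each at 0.83, and ATPB at 0.59.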
